A study of Homo sapiens with 10 samples.

Results

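Chromosome 19p12 holds a long run of zinc finger genes, and the 34 of them that are listed in the count tables of both cell types were followed here through the loss of ZNF274. Genes were taken by symbol (prefix ZNF, ZFP, ZSCAN, ZKSCAN, ZIM, ZIK, RBAK or HKR, any biotype) and by a start on hg19 chromosome 19 between 19.7 and 24.6 Mb. Of 42 annotated genes that met this rule, 34 were in both tables, 5 (ZNF257, ZNF676, ZNF99, ZNF723 and ZNF726) were in the HEK293T table alone, and 3 (ZNF729, ZNF728 and ZNF725P) were in neither. Of the 34 members, 30 are protein-coding and 4 are pseudogenes (ZNF56P, ZNF826P, ZNF209P and ZNF849P). They stand against 22750 genes in the HEK293T table, 20965 in the NPC table and 19665 in both.

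RNA-seq was available for 3 WT and 3 ZNF274 KO libraries of HEK293T, a line derived from human embryonic kidney, and for 2 WT and 2 ZNF274 KO libraries of NPC, neural progenitor cells differentiated from the H1 human embryonic stem cell line. In the KO cells, CRISPR-Cas9 was directed with a pair of guides to either side of ZNF274 so that the gene would be deleted, and the labels name no other allele or agent in any group. The series describes biological replicates on independent WT and KO clones. Which clone a library came from is not given in the sources used here, so p-values measure the spread between these libraries.

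Most of these genes encode KRAB zinc finger proteins, in which an array of C2H2 fingers binds DNA, often within transposable elements, and the KRAB domain recruits the corepressor TRIM28 and, through it, the histone methyltransferase SETDB1. Such genes multiplied by tandem duplication, so that neighbours resemble each other in exons and in promoters. ZNF274 is itself a zinc finger protein with KRAB and SCAN domains and is known to bind within the coding exons of other zinc finger genes. Among the members, ZNF91 and ZNF93 are known for binding SVA and LINE-1 retrotransposons, respectively.

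Along the chromosome, gaps of over 0.2 Mb between neighbouring members divide the interval into 4 blocks. The longest runs from ZNF101 to ZNF208 (chr19:19779605-22193751 in hg19) with 24 members. The next holds ZNF98, ZNF209P, ZNF492 and ZNF849P (chr19:22573821-22869534), and the third holds ZNF730, ZNF724, ZNF91, ZNF675 and ZNF681 (chr19:23258012-23941693). ZNF254 stands alone at chr19:24216207-24312770.

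The labels were first checked by ZNF274 itself. It had 445, 423 and 492 counts in the WT HEK293T libraries and 491 and 496 in the WT NPC libraries, and 0 counts in each of the 5 KO libraries. Total counts on genes were 21421013 to 32285876 per HEK293T library and 18621266 to 23035490 per NPC library, so that 3 counts, used below as the floor of detection in a library, correspond to 0.0921 to 0.154 CPM, that is, counts scaled to a fixed library total. Neural genes, progenitor and neuronal, summed to 3900 to 4950 CPM in WT NPC. In HEK293T kidney lineage markers were low, with PAX2 at 0.2 to 0.86 CPM over the 6 libraries and PAX8 at 0 in the WT libraries. Since only uniquely mapped reads were counted, resemblance between members limits what can be counted. The share of 50-base words of a member's exons that occur once in hg19 had a median of 92.2% and was under 90% in 11 members. It was 0% in ZNF826P, 52.5% in ZNF98, 53.4% in ZNF492, 60.4% in ZNF849P and 72.4% in ZNF66. ZNF98 and ZNF492 share 1230 such words. Exons of ZNF56P overlap another gene on the same strand over 97.9% of their length. The share was 44.7% for ZNF724, 20.5% for ZNF208 and 18.3% for ZNF738.

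To ask which of these genes respond to loss of ZNF274 in HEK293T, KO and WT libraries were compared. Of the 32 members tested, 16 were called higher in KO cells and 0 lower (edgeR, adjusted p below 0.05 and FC above 2), beside 0.478% and 0.0105% of all 19018 genes tested. Of the 16, 8 had at most 3 counts in every WT library and passed the filter on total counts through their KO libraries, so that their calls are given as a description. Among the 23 members above 3 counts in some WT library, 8 rose and 0 fell, beside 0.362% and 0.0113% of the 17690 genes above that level, a restriction chosen after seeing the data. Their median log2 FC was 0.90, and that of those genes -0.01. At an unadjusted p below 0.05, 23 members were higher and 0 lower by edgeR, beside 4.43% and 2.69% of all genes, and 14 of the 23 were above 3 counts in some WT library. In simulated data whose genes each kept their own spread, false calls exceeded the nominal share in both KO comparisons and in the interaction, which limits the counts of calls here and below. By no alternative test or normalization was a member called lower. Over all 32 the median log2 FC was 1.88, or 1.64 with members at the floor set to their bounds, beside 0.01 for all genes. In 22 of the 32 members every KO library was above every WT library, which held for 7.16% of all genes, and in 0 members were all KO libraries below, against 5.27% of all genes. The 22 include all tested members with at most 3 counts in every WT library. Those members passed the filter through their KO libraries, so that this count too is a description. ZNF826P and ZNF209P had too few counts to be tested in HEK293T. In bulk RNA, more cells expressing a gene and more RNA per cell cannot be told apart.

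**Figure D1:**
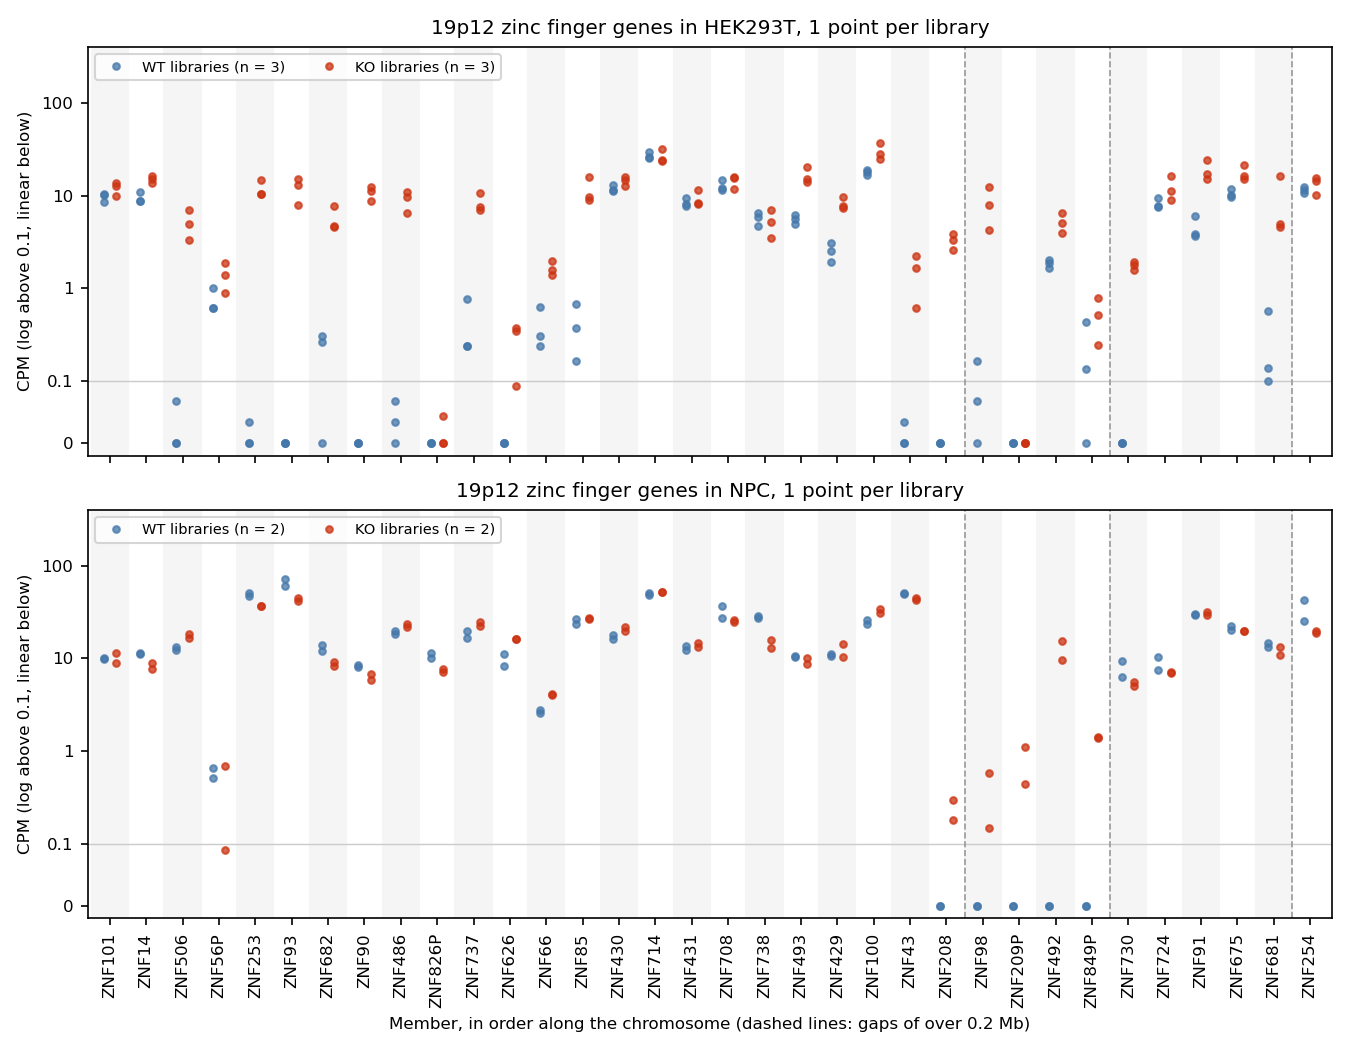
CPM of each member (vertical axis, log above 0.1 and linear below) in each HEK293T library (upper panel) and NPC library (lower panel), WT in blue and KO in red, with members in order along the chromosome on the horizontal axis. In HEK293T many members at or near 0 in WT have over 1 CPM in KO, whereas in NPC the members at 0 in WT are ZNF208, ZNF98, ZNF209P, ZNF492 and ZNF849P.

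The clearest changes were in members that were silent in WT HEK293T. Of the 34 members, 11 had at most 3 counts in every WT library, against 2 in KO cells (ZNF826P and ZNF209P). Of these 11, 9 were tested, and they passed the filter on total counts through their KO libraries, so their counts are given with no p-value. ZNF93 (ENSG00000184635, chr19:20011722-20074273) was at 0 counts in each of the 3 WT libraries, and KO replicates 1, 2 and 3 had 346, 259 and 350. ZNF93 was therefore at least 118.5-fold higher in KO cells, measured against 3 counts per library. Its groups did not overlap.

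ZNF90 (ENSG00000213988, chr19:20188803-20237885) was at 0 counts in WT and at 257, 284 and 335 in KO, at least 106.4-fold higher. Of its exon length, 22.7% overlaps other genes on the opposite strand, which the strand setting of the counting, not given in the sources used here, would have to separate. ZNF208 had 0 counts in WT and 89, 84 and 88 in KO libraries, at least 32-fold higher. ZNF730 had 0 counts in WT and 36, 63 and 48 in KO, at least 17.4-fold higher. In each of these genes the lowest KO library was well above the floor.

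Other silent members had a stray count or so in WT. ZNF253 had 1, 0 and 0 counts in WT and 239, 341 and 398 in KO, a ratio of 1053 with a 95% counting interval of 189 to 41640. ZNF506 had 0, 0 and 2 counts in WT and 113, 226 and 90 in KO, a ratio of 231 (63.6 to 1913). The intervals are wide because the WT side holds so few counts, and they cover counting error only. ZNF486 had 1, 0 and 2 counts in WT and 248, 315 and 174 in KO, a ratio of 264.5 (90.2 to 1286). ZNF43 had 0, 1 and 0 counts in WT and 38, 20 and 60 in KO, a ratio of 127 (22.4 to 5061). In all 4 genes every KO library was above every WT library.

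ZNF626 had 0 counts in WT and 8, 3 and 10 in the KO libraries. It was at least 2.67-fold higher and is not among the 16, its groups did not overlap, and KO replicate 2 was at the floor. ZNF826P had 0 counts in WT and 1, 0 and 0 in KO, and ZNF209P had 0 in all 6 libraries. No 50-base word of the ZNF826P exons is unique, although 242 and 200 counts were assigned to it in WT NPC.

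Of the members with low but detectable WT levels, 5 were called higher, whereas ZNF66 and ZNF849P, at similar levels, were not. ZNF682 had 8, 0 and 9 counts in WT and 108, 251 and 123 in KO libraries (log2 FC = 4.86 ± 0.62 SE, edgeR adjusted p = 0.00418). ZNF737 went from 23, 7 and 7 counts to 161, 346 and 204 (log2 FC = 4.33 ± 0.44, adjusted p = 0.000795). ZNF85 went from 5, 11 and 20 counts to 204, 512 and 258 (log2 FC = 4.80 ± 0.44, adjusted p = 0.000356). The groups of all 3 genes lay far apart. ZNF681 went from 3, 4 and 17 counts to 114, 527 and 123 (log2 FC = 4.97 ± 0.69, adjusted p = 0.00659), with KO replicate 2 far above the other KO libraries. ZNF98 went from 5, 0 and 2 counts to 97, 400 and 213 (log2 FC = 6.62 ± 0.66, adjusted p = 0.000628), with the limit that 52.5% of its exon words are unique. Single libraries moved some of these values by over 1.5-fold: without WT replicate 1 the log2 FC was 7.73 for ZNF98 and 5.12 for ZNF737, and that of ZNF681 was 6.13 without WT replicate 3 and 4.13 without KO replicate 2. By voom, an alternative test, the log2 FC of ZNF682 was 5.58.

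The smallest of the called changes were in members already expressed in WT cells. ZNF91 had 182, 113 and 108 counts in WT and 345, 781 and 454 in KO libraries (log2 FC = 2.04 ± 0.27 SE, edgeR adjusted p = 0.0047). ZNF429 went from 92, 56 and 74 counts to 168, 313 and 205 (log2 FC = 1.71 ± 0.26, adjusted p = 0.0136). ZNF493 went from 185, 143 and 165 counts to 318, 665 and 401 (log2 FC = 1.56 ± 0.22, adjusted p = 0.00739). None of the 3 overlapped between the groups. Without WT replicate 2, ZNF91, ZNF429, ZNF493, ZNF43 and ZNF681 were no longer called. ZNF429 was also lost without WT replicate 3 or KO replicate 2, ZNF493 without WT replicate 3, and ZNF43 and ZNF681 without WT replicate 1. ZNF43 was also not called by voom. The other 11 of the 16 were called under every alternative test, scaling, filter and threshold and with each library left out.

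The other 16 members were tested and not called, which does not show that they did not differ. Of these, 15 were above the floor in WT HEK293T, with log2 FC from -0.10 (ZNF738) to 2.05 (ZNF66). ZNF66 had 19, 9 and 7 counts in WT and 36, 64 and 37 in KO libraries (log2 FC = 2.05 ± 0.45 SE, edgeR adjusted p = 0.117), and was called by DESeq2 and with all 10 libraries in one fit. ZNF492 had 61, 48 and 56 counts in WT and 91, 166 and 172 in KO (log2 FC = 1.47 ± 0.29 SE, edgeR adjusted p = 0.0618), and was called by DESeq2, with scaling by library size alone, without a filter on low counts and without KO replicate 1. In both the groups stood apart. ZNF100, ZNF675 and ZNF14 likewise did not overlap between groups, with log2 FC of 0.76, 0.73 and 0.66. The most abundant members in WT cells per kilobase of exon, ZNF714 (3.35 CPM per kb) and ZNF14 (3.203 CPM per kb), included 1 with almost no difference: ZNF714 had 786, 853 and 743 counts in WT and 539, 1044 and 649 in KO libraries (log2 FC = -0.02 ± 0.17, adjusted p = 0.99). ZNF101, ZNF430, ZNF431, ZNF708, ZNF254, ZNF724, ZNF56P and ZNF849P had log2 FC of 0.32, 0.28, 0.15, 0.17, 0.21, 0.57, 0.90 and 1.41, in that order. Along the chromosome, ZNF253, ZNF93, ZNF682, ZNF90, ZNF486 and ZNF737 were consecutive tested members and all called, whereas ZNF430, ZNF714, ZNF431, ZNF708 and ZNF738 were consecutive and all uncalled. By block, 12 of 23 tested from ZNF101 to ZNF208 were called higher, 1 of 3 from ZNF98 to ZNF849P and 3 of 5 from ZNF730 to ZNF681. ZNF254 was not called. Of all genes tested, 0.478% were called higher. In the called run, ZNF253, ZNF93, ZNF90 and ZNF486 had at most 3 counts in every WT library. The block counts also include ZNF506, ZNF43, ZNF208 and ZNF730, which were at that level too. All of these passed the filter on total counts through their KO libraries, so the run and the block counts are a description.

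The 5 genes listed in the HEK293T table alone lie in the same interval. ZNF257 had 13, 0 and 0 counts in WT and 60, 841 and 612 in KO libraries (log2 FC = 6.83 ± 1.05 SE, edgeR adjusted p = 0.0136), so that its WT counts came from 1 library. ZNF676 had 0 counts in WT and 32, 46 and 174 in KO, at least 30.5-fold higher. ZNF723 had 1, 0 and 0 counts in WT and 150, 112 and 228 in KO, a ratio of 528 (94.3 to 20880). All 3 were called higher, but ZNF676 and ZNF723 passed the filter on total counts through their KO libraries and are given as a description. ZNF99, with 0 counts in WT and 3, 2 and 2 in KO, stayed at the floor, and ZNF726, with 8, 23 and 4 counts against 46, 14 and 59, was not called (edgeR adjusted p = 0.569).

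**Figure D2:**
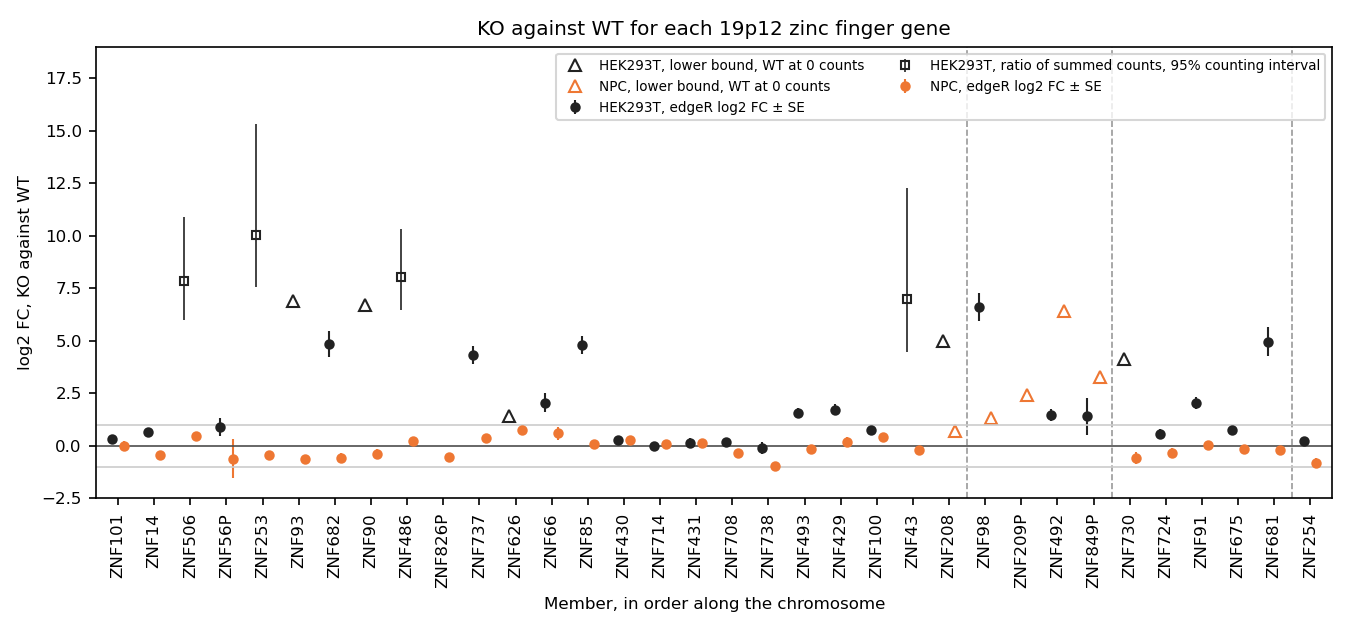
log2 FC between KO and WT (vertical axis) of each member in order along the chromosome (horizontal axis), HEK293T in black and NPC in orange. Filled points are edgeR estimates with SE, triangles are lower bounds where WT libraries had 0 counts, squares are ratios of summed counts with 95% counting intervals, and grey lines mark an FC of 2. The black symbols reach a ratio of 1053 for ZNF253 and a bound of 118.5-fold for ZNF93, and orange symbols leave the grey lines only for ZNF98, ZNF209P, ZNF492 and ZNF849P.

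The proteins that KRAB zinc finger proteins work with were read beside these genes. Of 15 corepressors, 0 were called in HEK293T and 0 in NPC by edgeR. In NPC, 8 had an adjusted p below 0.05 and a lower level in KO cells, short of an FC of 2, and 1, MPHOSPH8, a higher one (edgeR), where 2812 of 20577 genes were lower and 3078 higher at that threshold. Among the 8 were EHMT2 (log2 FC = -0.91, adjusted p = 0.0011), SETDB1 (log2 FC = -0.61, adjusted p = 0.00877) and TRIM28 (log2 FC = -0.61, adjusted p = 0.0062), and the summed level of the 15 was 3060 to 3190 CPM in WT and 2360 to 2370 CPM in KO NPC. The part of this shift in the members' levels was not tested. TRIM28 varied among the KO HEK293T libraries, at 313, 353 and 846 CPM against 1027, 813 and 992 CPM in WT (log2 FC = -0.90 ± 0.31 SE, edgeR adjusted p = 0.537). The part of this variation in the members' levels was not tested either. Of the 6 coding genes of the interval that carry no zinc finger symbol, 3 could be tested. All 3 lie before ZNF101, the first member, so none of them stands among the members. LPAR2, GMIP and ATP13A1 gave 0 calls in either cell type by edgeR, with log2 FC of 0.17, -0.12 and -0.02 in HEK293T. In NPC it was -0.93 (edgeR adjusted p = 0.0127, short of an FC of 2), -0.28 and 0.03, in that order. Of genes of any biotype in the interval outside the rule, 19 were tested in HEK293T and 0 called by edgeR. At an unadjusted p below 0.05, 6 were higher and 0 lower by edgeR, beside 4.43% and 2.69% of all genes. In NPC, 0 of 24 were called higher and 1 lower, beside 8.45% and 8.36%. For the interaction 5 of 22 were called higher in HEK293T and 0 lower, beside 6.22% and 6.01%. These counts were not restricted by WT level. Of 206 zinc finger genes tested elsewhere on chromosome 19, 25 were called higher and 0 lower by edgeR (0.478% and 0.0105% of all genes), 88 and 7 at an unadjusted p below 0.05, with a median log2 FC of 0.49.

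To see what the members share at their start sites, RefSeq promoters (GRCh38.p14) were taken for the 26 of 34 members that had an entry, and the 250 bases before each start were compared. ZNF506, ZNF56P, ZNF253, ZNF826P, ZNF738, ZNF98, ZNF209P and ZNF849P had none. The promoters below are those of ZNF93, ZNF90 and ZNF208 (silent in WT HEK293T and up in KO), ZNF430 and ZNF714 (expressed and not called), and ZNF492 (the member with the largest change in NPC). Each runs up to the base before the start. Capitals mark, on either strand, CCAATCAG, an 8-base word found in all 26 members, and CTGTCACT. CTGTCACT was chosen by frequency after CCAATCAG and the bases beside it were masked. Words that overlap either of the 2 may be as frequent.
ZNF93: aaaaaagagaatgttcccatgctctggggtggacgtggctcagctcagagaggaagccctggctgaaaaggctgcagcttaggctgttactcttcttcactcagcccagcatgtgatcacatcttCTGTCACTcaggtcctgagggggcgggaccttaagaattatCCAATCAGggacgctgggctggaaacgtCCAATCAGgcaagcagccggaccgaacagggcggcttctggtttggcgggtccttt
ZNF90: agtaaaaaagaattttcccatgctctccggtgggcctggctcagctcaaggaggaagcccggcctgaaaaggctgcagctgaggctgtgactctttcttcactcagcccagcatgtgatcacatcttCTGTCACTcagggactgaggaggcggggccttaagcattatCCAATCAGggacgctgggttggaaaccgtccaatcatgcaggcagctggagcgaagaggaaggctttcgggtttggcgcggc
ZNF208: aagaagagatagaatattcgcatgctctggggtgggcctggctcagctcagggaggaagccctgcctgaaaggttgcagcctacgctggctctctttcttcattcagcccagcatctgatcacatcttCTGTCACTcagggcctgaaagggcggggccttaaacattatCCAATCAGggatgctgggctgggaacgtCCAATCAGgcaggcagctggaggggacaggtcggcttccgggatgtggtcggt
ZNF430: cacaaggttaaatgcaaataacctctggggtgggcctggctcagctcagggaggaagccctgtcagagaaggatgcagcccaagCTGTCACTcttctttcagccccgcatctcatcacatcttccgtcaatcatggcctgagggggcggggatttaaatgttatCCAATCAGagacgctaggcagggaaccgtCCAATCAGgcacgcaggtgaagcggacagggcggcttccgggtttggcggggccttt
ZNF714: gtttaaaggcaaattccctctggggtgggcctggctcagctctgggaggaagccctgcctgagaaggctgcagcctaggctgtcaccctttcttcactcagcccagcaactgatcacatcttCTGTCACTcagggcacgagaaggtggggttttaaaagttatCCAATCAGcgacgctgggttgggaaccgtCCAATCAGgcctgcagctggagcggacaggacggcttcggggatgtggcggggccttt
ZNF492: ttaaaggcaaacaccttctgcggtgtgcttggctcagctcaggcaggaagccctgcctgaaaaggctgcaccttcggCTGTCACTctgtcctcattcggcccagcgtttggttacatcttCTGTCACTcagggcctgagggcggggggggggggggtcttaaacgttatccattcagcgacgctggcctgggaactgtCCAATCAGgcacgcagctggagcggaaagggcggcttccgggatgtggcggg
In GRCh38.p14 these are chr19:19900696-19900945 (plus strand), chr19:20077750-20077999 (plus), chr19:22010944-22011193 (minus), chr19:21020407-21020656 (plus), chr19:21081953-21082202 (plus) and chr19:22634074-22634323 (plus).

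Most of the promoters are close relatives. CCAATCAG, which contains the CCAAT box, was present in 26 of 26 members and in 4.59% of the 27305 genes with a promoter, counting both strands, while CCAAT alone was in 37% of all. CTGTCACT was in 23 of 26 members (not in ZNF101, ZNF43 or ZNF708) and in 1.94% of all genes. Both words together were in 23 of 26 members, in 0.267% of all genes and in 5.58% of 197 other zinc finger genes of chromosome 19. Since the words were chosen on these promoters, the shares carry no test. Counted from the start, the first base of CCAATCAG lay at -87 to -23, with a median of -57, and that of CTGTCACT at -173 to -69, with a median of -127.

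Since nearly all members hold both words, the words could not tell called from uncalled members. Of 13 members called higher in KO HEK293T, 13 held CCAATCAG and 12 held CTGTCACT, and of the other 13, 13 and 11 did. In global alignment the promoters of 2 members were identical at a median of 78% of 250 bases over 325 pairs, from 49.2% for ZNF14 and ZNF43 and for ZNF101 and ZNF708 to 92% for ZNF714 and ZNF431. Pairs of other zinc finger promoters on chromosome 19 had a median of 52.8%. ZNF101 and ZNF14 stood apart from the other members, with at most 60.8% and 56.8% in any pair. ZNF93, silent in WT HEK293T, and ZNF714, expressed there, were identical at 81.2%. Their GC content ranged from 48.8 to 63.6% among members. A match is a description of the sequence and does not show that a factor binds.

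**Figure D3:**
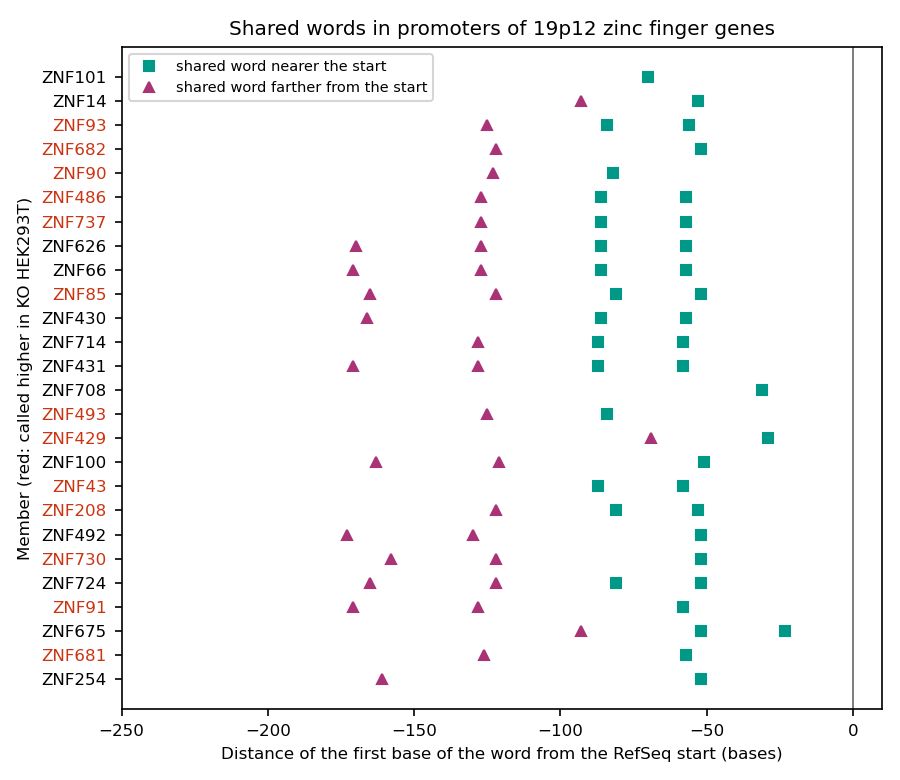
Distance in bases (horizontal axis) of each shared word from the RefSeq start for the 26 members with an entry (vertical axis, in order along the chromosome), with squares for CCAATCAG and triangles for CTGTCACT, and with names in red for members called higher in KO HEK293T. The squares lie between -87 and -23 in members of either colour.

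The same comparison was made in NPC. Of 34 members tested, 3 rose in KO cells (ZNF209P, ZNF492 and ZNF849P) and 0 fell (edgeR, same thresholds), while 8.45% of all 20577 genes were called higher and 8.36% lower. At an unadjusted p below 0.05, 8 members were higher and 6 lower by edgeR, beside 20.6% and 19.7% of all genes. Other settings called up to 4 members lower, the 4 being without a fold threshold, where 2812 of 20577 genes were lower. The median log2 FC was 0.03, fitted or with floor members at their bounds, beside -0.02 for all genes. In 14 members both KO libraries were above both WT libraries and in 15 both were below, against 33.3% and 33.8% of all genes. Read against these shares, the counts of separated groups are not a result about the members.

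Cell type markers moved with the NPC comparison. Of 12 neural genes, which include the neuronal genes DCX and MAP2, 9 fell in KO NPC. The summed level of the 12 was 3900 to 4950 CPM in WT and 3310 to 3410 CPM in KO libraries. HES5 was at 0 in KO, but it had only 6 and 4 counts in the WT libraries and was not called. Mean MAP2 fell from 1041 to 147.4 CPM. Mean SOX1 fell from 28.96 to 0.0697 CPM, with the WT libraries far apart at 7.29 and 50.62 CPM. Mean SOX2 fell from 223 to 16.9 CPM, so that both of these defining neural progenitor markers were low in the libraries labelled KO NPC. NES, also a progenitor marker, was not called (mean 2630 CPM in WT and 3135 CPM in KO, log2 FC = 0.25, edgeR adjusted p = 0.231), and it made up most of the summed level in KO. Of 10 mesenchymal genes, 5 rose (1330 to 2220 CPM in WT, 5270 to 6100 in KO). Of 6 epithelial genes, 3 rose (331 to 574 CPM in WT, 1300 to 1440 in KO). Of 5 pluripotent genes tested, 1 rose and 2 fell (208 to 243 CPM in WT, 80.9 to 94.6 in KO). The part of these shifts in the members' levels was not tested. In HEK293T 0 genes of the same lists were called by edgeR.

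The 3 that rose are neighbours, and were at 0 in WT NPC. ZNF492 (ENSG00000229676, chr19:22817126-22850473) was at 0 in WT replicates 1 and 2 and reached 194 and 342 counts with KO, at least 84.5-fold higher. ZNF849P (chr19:22867969-22869534) had 0 and 0 counts in WT and 29 and 31 in KO, at least 9.57-fold higher. ZNF209P (chr19:22646724-22655838) had 0 and 0 counts in WT and 9 and 25 in KO, at least 5.31-fold higher. All 3 passed the filter on total counts through the KO libraries, so their calls are a description. ZNF209P was no longer called without KO replicate 2. Of the words of ZNF849P, 260 are shared with ZNF492 and have no unique position.

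The other members at 0 in WT NPC adjoin them. ZNF98 had 0 and 0 counts in WT and 3 and 13 in KO, at least 2.48-fold higher. ZNF208 (chr19:22115760-22193751) had 0 and 0 counts in WT and 6 and 4 in KO, at least 1.61-fold higher. Both passed the filter on total counts through the KO libraries, so these values too are a description. The 5 members at 0 in WT NPC, ZNF208, ZNF98, ZNF209P, ZNF492 and ZNF849P, are therefore consecutive members along the chromosome, and each had counts in both KO libraries.

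The remaining 29 members were above the floor in WT NPC, and their log2 FC ran from -0.97 (ZNF738) to 0.74 (ZNF626). ZNF738 had 600 and 537 counts in WT and 261 and 349 in KO (log2 FC = -0.97 ± 0.17 SE, edgeR adjusted p = 0.00653), short of an FC of 2. ZNF93 had 1513 and 1177 counts in WT and 919 in both KO libraries (log2 FC = -0.60 ± 0.14, adjusted p = 0.0167). ZNF254 had 542 and 826 counts in WT and 402 and 422 in KO (log2 FC = -0.80 ± 0.24, adjusted p = 0.0447). These 3 genes did not overlap between groups. ZNF254 was called lower without WT replicate 1, and ZNF738 without KO replicate 2 and with scaling by library size alone. ZNF253 (log2 FC = -0.42 ± 0.13, adjusted p = 0.0442) was the fourth with an adjusted p below 0.05 and a lower level. ZNF626 had 234 and 163 counts in WT and 329 and 362 in KO (log2 FC = 0.74 ± 0.21, adjusted p = 0.0401). Per kilobase of exon, ZNF253 (13.5 CPM per kb) and ZNF93 (11.8 CPM per kb) had the highest levels of the members in WT NPC.

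An interaction term over all 10 libraries asked whether HEK293T and NPC differed in a member's response to loss of ZNF274. The response was higher in HEK293T for 16 of 34 members and lower for 1, where 6.22% of 19255 genes were higher and 6.01% lower. Of these 17 calls, 9 were of members at or under the floor in 1 of the WT groups and are given as a description. Among the 20 members above the floor in every group, 8 were higher in HEK293T and 0 lower (13 and 0 at an unadjusted p below 0.05), beside 6.7% and 7.06% of the 14958 genes above that level. The 16 were ZNF14, ZNF506, ZNF253, ZNF93, ZNF682, ZNF90, ZNF486, ZNF737, ZNF626, ZNF85, ZNF493, ZNF429, ZNF43, ZNF730, ZNF91 and ZNF681. The 1 that responded more in NPC was ZNF492 (fitted difference of -9.86), a fitted value that depends on 0 counts in WT NPC and is no bound. Cell type and count table cannot be told apart here. For the 20 members above the floor in every group, the median log2 FC was 0.74 in HEK293T and -0.06 in NPC, and the median of their interaction was 1.04. ZNF14 had 325, 257 and 259 counts in WT and 342, 535 and 364 in KO HEK293T, against 242 and 216 in WT and 179 and 171 in KO NPC (difference of 1.09 ± 0.29, edgeR adjusted p = 0.0253). ZNF14 lost its call without WT HEK293T replicate 3 or when either KO NPC library or WT NPC replicate 1 was left out, ZNF429 without WT NPC replicate 1 or KO NPC replicate 1, and ZNF626 without either KO NPC library.

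**Figure D4:**
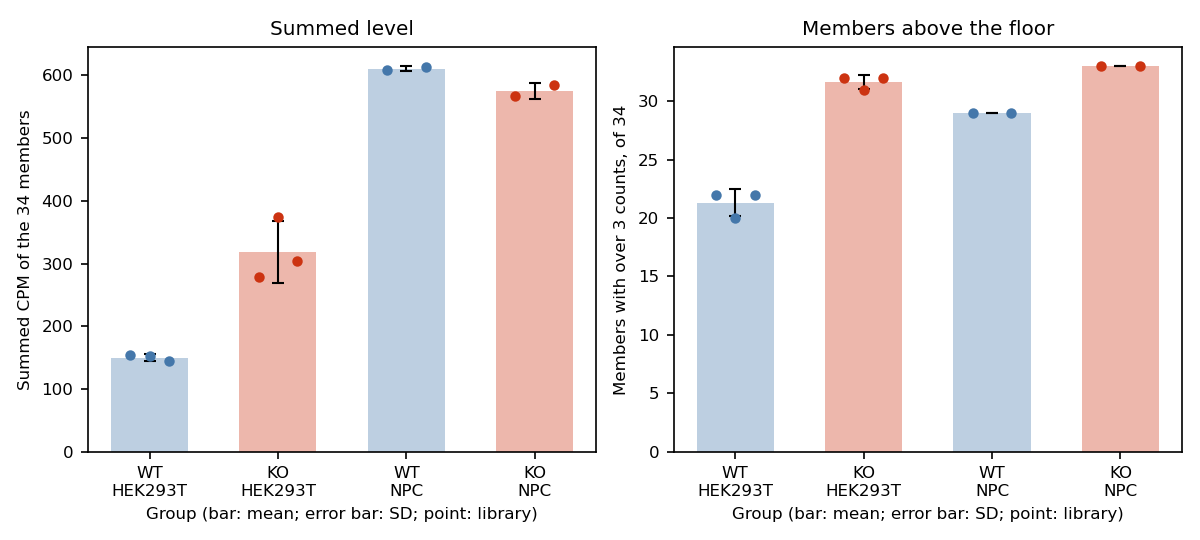
Summed CPM of the 34 members (left) and number of members with over 3 counts (right) in each library, with bars for group means and error bars for SD; CPM were normalized over all 10 libraries. KO HEK293T libraries have 31 or 32 members above 3 counts and WT HEK293T libraries 20 to 22.

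The WT cells themselves differed. Of the 34 members, 20 were higher in WT NPC than in WT HEK293T and 1, ZNF492, was lower (edgeR, one fit over 10 libraries), beside 25.2% of all genes higher and 15.5% lower. Of these 21 calls, 10 were of members at or under the floor in 1 of the WT groups and are given as a description. Among the 20 members above it in both, 11 were higher in NPC and 0 lower (16 and 0 at an unadjusted p below 0.05), beside 19.9% and 17.1% of 15885 genes, with a median difference of 1.18 against -0.02. The median difference was 1.84 on the log2 scale, also with floor members at their bounds, and that of all genes 0.13. ZNF93 averaged 66.2 CPM in WT NPC and 0 in WT HEK293T, at least 652-fold higher. ZNF43 averaged 50.6 CPM against 0.0115, and ZNF253 averaged 49.2 against 0.0111, with ratios of 4488 (805 to 177400) and 4366 (783 to 172500). In each of these 3 genes the WT NPC libraries had 921 to 1513 counts and the WT HEK293T libraries at most 1. ZNF714, expressed in both, averaged 50.01 and 26.9 CPM (log2 difference of 0.90 ± 0.17 SE, edgeR adjusted p = 0.000545), short of an FC of 2. ZNF492 averaged 0 CPM in WT NPC and 1.86 in WT HEK293T, at least 12.5-fold lower. ZNF675 lost its call without WT HEK293T replicate 3 or WT NPC replicate 2. This comparison shares its WT HEK293T libraries with the KO comparison, so the levels are only set side by side.

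**Figure D5:**
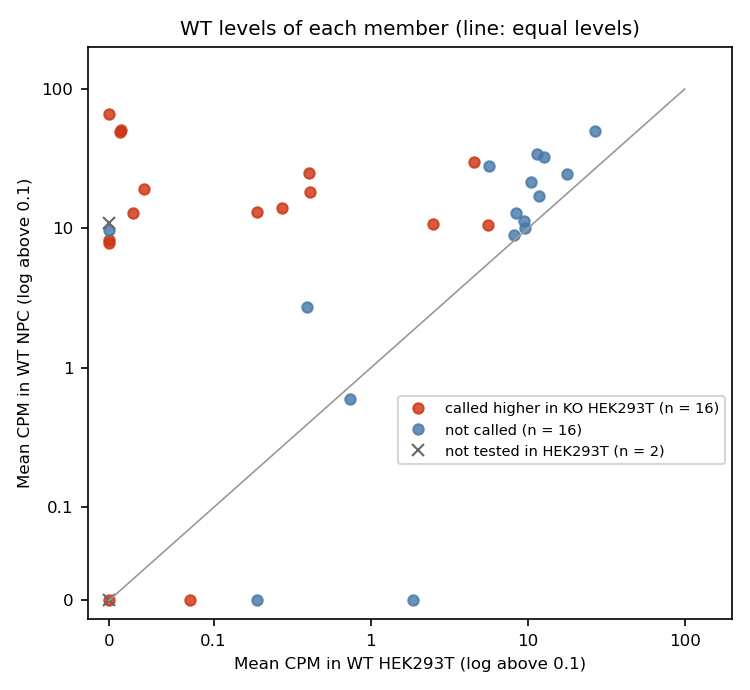
Mean CPM of each member in WT HEK293T (horizontal axis) and WT NPC (vertical axis), log above 0.1 and linear below, normalized over all 10 libraries, with members called higher in KO HEK293T in red, tested and uncalled ones in blue and untested ones as crosses. ZNF93, at 66.2 CPM in WT NPC and 0 in WT HEK293T, stands at the upper left, and ZNF492, at 1.86 CPM in WT HEK293T and 0 in WT NPC, lies on the horizontal axis.

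Summed over the 34 members, the level was 144.0 to 153.8 CPM in WT HEK293T, 278.5 to 373.6 in KO HEK293T, 608.3 to 613.5 in WT NPC and 566.7 to 584.4 in KO NPC, normalized over all 10 libraries. KO HEK293T libraries were above all WT HEK293T libraries and below all NPC libraries. Set side by side, ZNF93 averaged 0, 12.1, 65.9 and 43.4 CPM in WT HEK293T, KO HEK293T, WT NPC and KO NPC, normalized within each cell type. ZNF43 averaged 0.0115, 1.51, 50.4 and 43.98 CPM in the same order, and ZNF90 averaged 0, 10.8, 8.25 and 6.34. The KO HEK293T level was near the NPC level for ZNF90 and far under it for ZNF43; these differences were not tested. By detection, 8 members (ZNF506, ZNF253, ZNF93, ZNF90, ZNF486, ZNF626, ZNF43 and ZNF730) were at or under 3 counts in WT HEK293T only, 3 (ZNF98, ZNF492 and ZNF849P) in WT NPC only, and ZNF208 in both WT groups but in neither KO group. ZNF826P was at the floor in HEK293T of either genotype, ZNF209P in every group but KO NPC, and 20 members were above it in every group.

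Elsewhere on chromosome 19, 28 of 221 zinc finger genes tested in NPC were higher and 5 lower, beside 8.45% and 8.36% of all genes, with a median log2 FC of 0.21 against -0.02. The shares called in either cell type were not tested against those of the 19p12 members.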

How the data were processed

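RNA-seq libraries (stranded mRNA, per the labels) were made from WT and ZNF274 KO HEK293T cells (n = 3 each) and NPC (n = 2 each). The authors aligned reads to hg19 (hisat2) and, from reads with a unique position, made counts with featureCounts, giving it genes and transposable elements in a joint annotation; versions and the strand setting of the counting are not given in the sources used here. Reads from transposable elements within exons may therefore be missing from a gene. The deposited values are raw counts per gene, in 1 table per cell type, without normalization, and no column was left unassigned. Libraries were grouped by genotype and cell type in the labels and numbered in their order.

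Identifiers were matched to GENCODE v44 lifted to hg19 (23273 of 24050). Counts were tested over all genes of a table with edgeR 4.0.16 in R 4.3.3 (TMM, quasi-likelihood test, Benjamini-Hochberg adjustment over all genes tested), after discarding genes with fewer total counts than libraries, and calls required both an FC of over 2 and an adjusted p under 0.05. SEs were derived from the fitted log2 FC and F statistic. CPM are TMM-normalized. The interaction and the WT comparison were fitted over the genes of both tables. Where a group had 0 counts, a fold is a bound against 3 counts per library, and with 1 to 3 counts in total a ratio with a 95% exact interval is given. Alternatives were DESeq2 1.42.0, voom (limma 3.58.1), other scalings, filters and thresholds, 10 libraries in one fit, coding members alone, and each library left out. Libraries of a group differed by more than sampling noise (9.75 to 75.2 chi-square units per gene) and were counted separately. The procedure was tested on simulated data with known changes, with spread either following the trend over genes, where false calls stayed near the nominal share, or kept by each gene. Global alignments were made with Biopython 1.88. Members and lists were chosen with earlier results of these data known. Every member is named, and counts per library are given for members called between KO and WT, in the cell type of the call. For members called in the interaction they are given in HEK293T, but in NPC only for ZNF14, ZNF93, ZNF492 and ZNF626. Counts given for other members were chosen after their values were seen. Likeness between members across libraries is not given, since the libraries fall into separate clusters.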

Additional observations from a re-analysis of the deposited data

Results flagged for a closer look

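The KO effect was called different between HEK293T and NPC for 17 members by the interaction term (edgeR, adjusted p below 0.05 and a difference of over 2-fold), of which 9 were at or under 3 counts per library in a WT group and are given as a description. The value given here is the fitted log2 FC in HEK293T minus that in NPC. It was 11.8 for ZNF93, 11.5 for ZNF90, 9.92 for ZNF253 and 9.04 for ZNF730, which had at most 1 count in all WT HEK293T libraries together, so that these fitted values depend on the prior count and are no bounds. It was 7.60 for ZNF486, 7.06 for ZNF506, 6.69 for ZNF43 and 4.99 for ZNF626, which were at or under 3 counts per library in WT HEK293T, so that these values depend on it too. It was 5.40 for ZNF682, 5.16 for ZNF681, 4.67 for ZNF85 and 3.93 for ZNF737. It was 1.97 for ZNF91, 1.71 for ZNF493, 1.5 for ZNF429 and 1.09 for ZNF14, members expressed in each of the 4 groups. In the other direction it was -9.86 for ZNF492, which had 0 counts in WT NPC. Without WT HEK293T replicate 1 the value was 4.72 for ZNF737, and for ZNF681 it was 6.32 without WT HEK293T replicate 3 and 4.35 without KO HEK293T replicate 2. For ZNF682 it ran from 4.84 to 6.13 over the alternatives.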

How the results depend on the processing

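No member's log2 FC changed sign among the results examined. Members higher in KO HEK293T numbered 11 to 19, against 16, over the alternatives other than a restriction by WT level, with 0 lower throughout; 11 of the 16 were called under every test, scaling, filter, threshold and left-out library. Listing members found in either table, an alternative added after seeing the data, gave 19 higher and 0 lower. Keeping only members above 3 counts in some WT library, also added after seeing the data, left 8 of 23 higher in HEK293T and 0 of 29 in NPC, since the others were at or under that level in WT. The like restriction to members above it in every group compared left 8 of 20 higher and 0 lower for the interaction, against 16 and 1, and 11 of 20 higher and 0 lower in WT NPC, against 20 and 1. Members higher in KO NPC otherwise numbered 3, but 5 with all 10 libraries in one fit, 4 without a fold threshold, 2 with the stricter filter, with an adjusted p below 0.01 or without KO replicate 2, and 1 among coding members alone. Members lower in KO NPC numbered 0, but 1 by library size alone, 4 without a fold threshold, and 0 to 1 with a library left out (1 without WT replicate 1 or KO replicate 2). For the interaction, members lower in HEK293T numbered 1, but 2 by DESeq2 or voom and 1 to 2 with a library left out (2 without WT HEK293T replicate 2). Members lower in WT NPC than in WT HEK293T numbered 1, but 2 by DESeq2 and 1 to 2 with a library left out (2 without WT HEK293T replicate 2). The causes were not tested. Over all genes of HEK293T, calls of higher genes ranged from 42 (without WT replicate 2) to 153 (DESeq2), against 91. Scaling by library size alone moved the median log2 FC of all genes in NPC from -0.02 to -0.13 and that of the interaction from 0.03 to 0.24. No paired analysis was possible because no label pairs libraries. Counts near the floor and 2 libraries per NPC group limit what could be detected.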
